A study of Homo sapiens with 10 samples.

Results

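C4-2 is a castration-resistant derivative of the LNCaP prostate cancer cell line. A pair of control populations of it was profiled, and the comparison between them is described here. Of these, the first was the parental C4-2 line without a transgene. The second was C4-2 transfected with the GFP empty vector, the control for C4-2 lines that stably carry the adapter protein β-arrestin 1 (ARRB1) fused to GFP. Arrays were assigned to groups by their sample labels alone, which gave 3 parental and 3 GFP arrays, 6 of the 10 arrays of the series. The other 4 arrays, 2 of wild-type ARRB1-GFP (wtARRB1) and 2 of nuclear ARRB1-GFP (nucARRB1), entered the fit and are given beside the controls where a gene differed between them. These names stand for the arrays so labelled. On them ARRB1 was not higher by its array probes. Its brightest probe read 7.71 and 7.64 on the wtARRB1 arrays and 8.29 and 7.70 on the nucARRB1 arrays, against 8.12 to 8.61 in GFP cells, a difference of -0.76 for wtARRB1 (limma adjusted p = 0.00714) and -0.44 for nucARRB1 (adjusted p = 0.138), and none of the 4 ARRB1 probes was higher. Where these probes lie on the transcript is not known here, so whether they can read the transgene, a humanised ARRB1 sequence per the study, was not tested. The study reports the fusion proteins in both lines, by cell fractionation and by pull-down with an antibody to GFP. All cells were grown in RPMI with 10% foetal bovine serum and received no treatment. Per the labels the stable lines were also kept in 0.8 mg/ml G418 (the study's methods give another concentration for the selection), so the GFP vector, the transfection and the drug cannot be told apart in this comparison. Whether the GFP line is a clone or a pool, and whether the arrays of a group came from separate cultures, is not given in the sources used here, so p-values measure the spread between these arrays, which may be technical.

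An empty-vector line shares with its transgenic sisters the transfection, the selection and the expression of the marker. The parental line shares none of these, and the difference between both controls is the background against which a transgene is read. G418 is an aminoglycoside that binds the ribosome and kills cells that lack the resistance enzyme carried by the plasmid. For that reason genes of the ribosome and of translation were listed, together with genes for sensing of foreign nucleic acid, lysosomes, drug efflux, amino acid stress, respiration and the cell cycle.

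Levels are log2 bead intensities on Illumina BeadChips after quantile normalisation, and the median of each array is then 6.30, close to the level of probes without signal. Of 48801 probes, 27576 had exactly 1 gene symbol and stood for 18664 genes, each read from its brightest probe. The number of arrays limits the precision. The cells read as prostate luminal epithelium. Of 14 measured luminal markers, 12 were above 7 on all 6 arrays, such as the luminal keratin KRT18 at 11.92 to 12.60. KLK3, which encodes prostate-specific antigen, read only 6.13 to 6.74, near the array median. The mean level of the markers of basal cells was 6.31 to 6.34, that of neuroendocrine cells 6.61 to 6.72 and that of fibroblasts 6.47 to 6.58. That of endothelium was 6.28 to 6.39 and that of blood 6.30 to 6.43. Above 7 on all 6 arrays were 1 marker each of neuroendocrine cells, fibroblasts and blood, and none of basal cells or endothelium. The neuroendocrine marker DDC was bright, with means of 11.26 in parental and 11.85 in GFP cells. ACTA2 of the fibroblast markers had means of 8.23 and 7.89. None of the markers of these types was called between parental and GFP cells.

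GFP and parental cells were very similar. Correlations over all probes were 0.98908 to 0.99115 among the GFP arrays, 0.98821 to 0.99206 among the parental arrays and 0.98482 to 0.98941 between the groups. The same arrays correlated at 0.95989 to 0.98242 with the 4 ARRB1 arrays. The parental arrays were not equally alike. No gene lay more than 2-fold apart between parental replicates 2 and 3, whereas parental replicate 1 lay more than 2-fold from their mean for 35 genes. The calls are given with and without it, as are the medians of some lists. Medians given once include this array, and some of them changed sign without it. Ribosome quality control went from 0.02 to -0.05 and the BEX and TCEAL list from -0.04 to 0.03. The medians of the luminal markers (-0.02 to 0.09) and of heat shock genes (0.10 to 0.01) moved further.

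At a false discovery rate of 1%, 9 of 18664 genes (0.0482%) differed between GFP and parental cells. BEX1 alone was higher in GFP cells (1 gene, 0.00536%). Lower were 8 genes (0.0429%), namely PHLDA1, NOVA1, SNHG5, RPL34, ILRUN-AS1, MIR99AHG, RPL21 and RPL26. Changes were between 1.72-fold for RPL26 and 3.05-fold for PHLDA1. Of the genes that fell, 3 encode proteins of the large ribosomal subunit and 3 are non-coding RNAs. As single probes, 14 of 48801 (0.0287%) were called. Unadjusted p-values under 0.05 were reached by 1872 genes (10%), and 14 genes (0.075%) were past 2-fold, 4 higher (0.0214%) and 10 lower (0.0536%). The ARRB1 lines differed from both controls by far more genes in the same fit, in which the comparisons share arrays. Against GFP cells, 1672 genes (8.96%) were called in wtARRB1 cells, 4.26% of all genes higher and 4.7% lower, and 2027 (10.9%) in nucARRB1 cells, 4.97% higher and 5.89% lower. Against parental cells, 909 genes (4.87%) were called in wtARRB1 cells, 2.48% higher and 2.39% lower, and 1240 (6.64%) in nucARRB1 cells, 3.09% higher and 3.56% lower.

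The number of calls was fragile. No gene was called by limma when parental replicate 2, GFP replicate 2 or GFP replicate 3 was left out (1585, 1701 and 1609 genes at an unadjusted p under 0.05). Without GFP replicate 1 there was 1 call, BEX1, and without parental replicate 3 there were 2. Fitted on the 6 control arrays alone, 81 genes were called, including all 9, and without 1 of the nucARRB1 arrays 32 genes were called. With median scaling in place of quantile normalisation 3 genes were called, 2 higher and 1 lower, and 2 of them were among the 9. With no normalisation between arrays 2 of the 9 were also called, again with 1 lower call. Most of the 8 genes called lower in the main fit were thus not called in these settings. Limma adjusted p among the 9 reached 0.117 with median scaling and 0.208 with no normalisation.

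**Figure D1:**
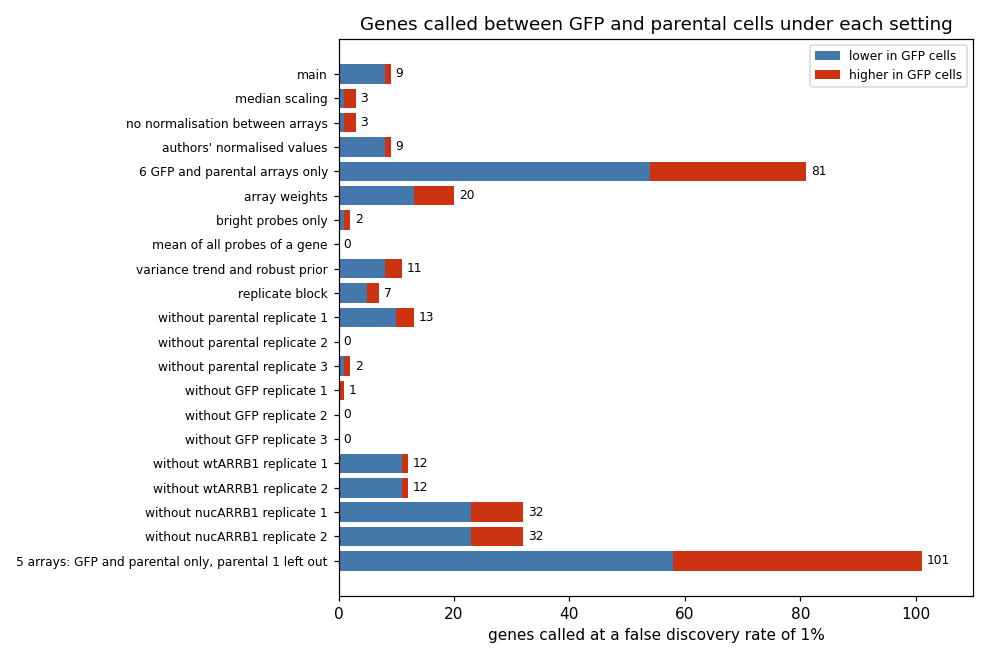
Number of genes called between GFP and parental cells at a false discovery rate of 1% (x axis) under each setting of the analysis (y axis), with genes lower in GFP cells in blue and genes higher in red. Counts ran from 0 without parental replicate 2 to 101 in the fit of 5 control arrays without parental replicate 1, around 9 in the main analysis.

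BEX1, an X-linked adaptor protein gene best known from neurons, rose most. Its log2 level was 8.58, 8.03 and 7.80 on parental arrays 1 to 3 and 9.48, 9.59 and 9.79 on the GFP arrays. All GFP arrays were above all parental arrays, by 1.48 on the log2 scale (SE 0.15, 2.79-fold, limma adjusted p = 0.000673). It was 8.34 and 8.16 in wtARRB1 and 8.70 and 8.75 in nucARRB1 cells, so that the GFP arrays were the highest of all 10. The second BEX1 probe did not show this. It read 8.49 to 8.65 in parental and 8.48 to 9.13 in GFP cells, with a difference of 0.18 (adjusted p = 0.886). Among 20 measured genes of the BEX, TCEAL and related X-linked families, BEX1 was the only one called, and the list's median difference was -0.04 against 0.00 over all genes. TCEAL9, a small nuclear elongation factor-like protein, had a log2 difference of -0.51 (adjusted p = 0.179).

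PHLDA1, a pleckstrin homology-like protein induced by growth factor signalling, fell most. It read 9.20, 9.33 and 9.12 in parental cells and 7.04, 7.78 and 8.02 in GFP cells. The parental arrays were tight and the GFP arrays spread over almost 1 log2 unit below them. PHLDA1 fell by 1.61 on the log2 scale (SE 0.23, 3.05-fold, adjusted p = 0.00959). PHLDA1 was also low in all transfected lines, at 6.79 and 7.69 in wtARRB1 and 6.44 and 6.85 in nucARRB1 cells, with limma adjusted p = 0.000261 and 1.9e-05 against parental cells.

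NOVA1, an RNA-binding protein that directs splicing in neurons, was 8.18, 7.45 and 7.20 in parental cells. In GFP cells it was 6.13, 6.43 and 6.28, the level of probes without signal. It fell by 1.33 (SE 0.18, at least 2.52-fold, adjusted p = 0.00667), a lower bound since the GFP arrays were at that level. A dimmer NOVA1 probe had a difference of -0.81 (adjusted p = 0.0368), and the third, at background on all 6 arrays, had 0.05 (adjusted p = 0.967). NOVA1 was 7.38 and 7.50 in wtARRB1 and 6.28 and 6.28 in nucARRB1 cells. The wtARRB1 arrays thus lay within the parental range and the nucARRB1 arrays with the GFP arrays.

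**Figure D2:**
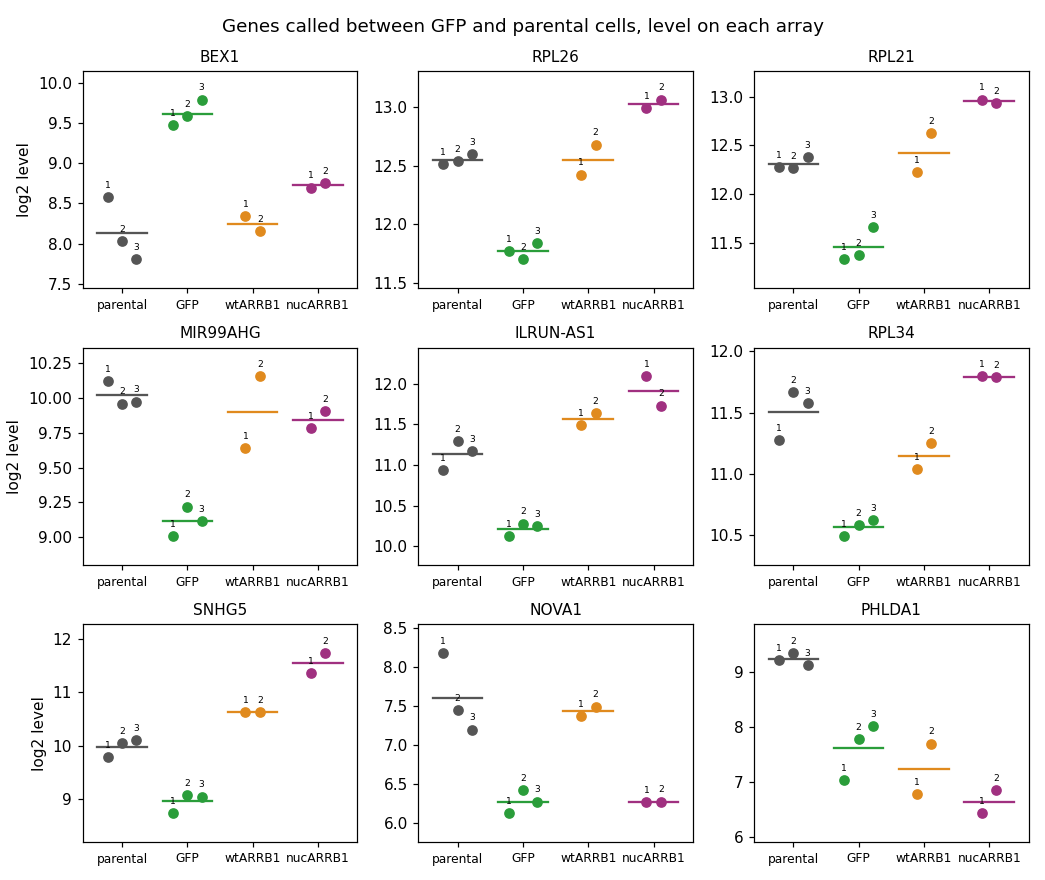
Log2 level (y axis) of each of the 9 called genes on every array, grouped by cell line (x axis), with the replicate number above each point and the group mean as a line. The 3 GFP arrays (green) do not overlap the 3 parental arrays (grey) for any of the genes, and for BEX1 they lie between 9.48 and 9.79, above the parental arrays at 7.80 to 8.58.

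The ribosomal protein genes that fell are shown by the sequence at their start, since most ribosomal protein mRNAs in mammals begin with a run of pyrimidines (the 5′ terminal oligopyrimidine tract) through which their translation and stability follow nutrient signalling. Several host genes of small nucleolar RNAs are transcribed from starts of the same kind. SNHG5 is shown as such a host gene, though its run is shorter than the cut of 8 bases used below. ILRUN-AS1 is shown as another called gene, with a run above that cut. The windows below hold 15 bases before and 15 bases from the start annotated by RefSeq on GRCh38.p14, on the sense strand, with the longest run of C or T in capitals.
RPL34 (chr4:108620561-108620590, + strand): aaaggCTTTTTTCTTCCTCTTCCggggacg
RPL26 (chr17:8383179-8383208, - strand): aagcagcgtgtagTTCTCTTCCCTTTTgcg
RPL21 (chr13:27251543-27251572, + strand): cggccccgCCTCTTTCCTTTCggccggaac
SNHG5 (chr6:85678719-85678748, - strand): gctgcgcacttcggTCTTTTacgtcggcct
ILRUN-AS1 (chr6:34696139-34696168, + strand): atgcccaagTCTTTTCCCCTCatcccacgt
The runs were 18 bases in RPL34, 14 in RPL26, 13 in RPL21, 12 in ILRUN-AS1 and 6 in SNHG5. In BEX1, NOVA1, MIR99AHG and PHLDA1 the longest runs were 4, 4, 3 and 2 bases. RPS29, a ribosomal protein gene with 1 strongly lower probe, had a run of only 4 bases. A run of 8 or more bases, each C or T on the sense strand, stood in this window in 13.4% of 27305 genes with a sequence. It stood in 47 of 62 ribosomal protein genes (75.8%) and in 4 of the 9 called genes (44.4%), namely RPL34, RPL26, RPL21 and ILRUN-AS1. As RPL34, RPL26 and RPL21 are ribosomal protein genes, the share among the called genes largely repeats that of their class. A match is a description of the letters only.

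RPL34, a protein of the large ribosomal subunit, read 11.27, 11.67 and 11.58 in parental cells and 10.49, 10.59 and 10.63 in GFP cells. It fell by 0.94 (SE 0.11, 1.91-fold, adjusted p = 0.00322), and its second probe had a difference of -0.81 (adjusted p = 0.0229). RPL21 read 12.28, 12.27 and 12.38 in parental and 11.33, 11.37 and 11.66 in GFP cells, a fall of 0.86 (SE 0.12, adjusted p = 0.00919). RPL26, which also binds p53 mRNA, read 12.52, 12.54 and 12.60 in parental and 11.77, 11.70 and 11.84 in GFP cells, a fall of 0.78 (SE 0.10, adjusted p = 0.00449). In all 3 genes every GFP array was below every parental array by more than the range within either group. The wtARRB1 arrays read 11.04 and 11.25 for RPL34, 12.23 and 12.63 for RPL21 and 12.43 and 12.68 for RPL26. The nucARRB1 arrays read 11.80 and 11.79, 12.97 and 12.93, and 12.995 and 13.07, so the GFP arrays were the lowest of all 10 for these genes. Ribosomal protein genes have many processed pseudogenes with near-identical sequence, and which copies a probe reads was not tested.

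The other ribosomal protein genes did not pass the test, but more of them lay lower than higher. Of 68 measured cytosolic ribosomal protein genes, 3 fell, none rose and 65 did not pass the test, with 0 members higher and 19 lower at an unadjusted limma p under 0.05. The GFP and parental arrays did not overlap for 20 members lower in GFP cells (all genes: 8.1%) and for 3 higher (all genes: 8.94%). Their median difference was -0.07 against 0.00 over all genes, -0.15 with median scaling and -0.04 without parental replicate 1. The list's mean relative to the parental mean was -0.03 to 0.03 on the parental arrays and -0.09, -0.13 and -0.16 on the GFP arrays. The brightest probes used for the list had a median parental level of 13.73, toward the top of the scale. RPS7 had a log2 difference of -0.66 (adjusted p = 0.123), and at the other end RPL13A had 0.30 (adjusted p = 0.767). Probes of 1 gene could differ. A probe of RPS29, a small-subunit protein, had the lowest adjusted p of all 48801, at 10.07, 9.84 and 9.96 in parental and 8.80, 8.75 and 8.82 in GFP cells (-1.17, SE 0.095, adjusted p = 8.29e-05). Its brightest probe read 15.10 to 15.24 on all 6 arrays, with a difference of -0.01, and those levels are near the top of the scale. A further RPS29 probe that bright had a difference of 0.0036. The remaining probe, at 13.12 to 13.68, had -0.36 (adjusted p = 0.365). RPS29 was named after its values were seen.

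SNHG5, a spliced non-coding RNA whose introns release small nucleolar RNAs, read 9.79, 10.06 and 10.10 in parental cells and 8.74, 9.08 and 9.05 in GFP cells. It fell by 1.03 (SE 0.13, 2.04-fold, adjusted p = 0.00382), and its second probe had a difference of -0.80 (adjusted p = 0.0229). Levels in wtARRB1 were 10.63 and 10.63 and in nucARRB1 11.36 and 11.73, above both controls. In a list of snoRNA host genes added after the values were seen, SNHG5 was the only one of 8 measured members called. Without overlap 3 members were lower (all genes: 8.1%) and 1 was higher (all genes: 8.94%). SNHG32 had a difference of -0.40 (adjusted p = 0.319) and GAS5, read near background, -0.30 (adjusted p = 0.606), while ZFAS1 had 0.10.

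ILRUN-AS1, an RNA antisense to the gene of the inflammation and lipid regulator ILRUN, read 10.94, 11.30 and 11.17 in parental and 10.13, 10.28 and 10.25 in GFP cells (-0.92, SE 0.12, adjusted p = 0.0051). MIR99AHG, the host gene of a microRNA cluster that includes miR-99a, read 10.12, 9.96 and 9.97 in parental and 9.01, 9.22 and 9.12 in GFP cells (-0.90, SE 0.12, adjusted p = 0.00798). Both were higher again in the ARRB1 lines, at 11.49 to 12.09 for ILRUN-AS1 and 9.64 to 10.16 for MIR99AHG. The other MIR99AHG probes had differences of -0.60 and -0.28, with adjusted p = 0.478 and 0.541. Among probes of genes read from a brighter probe, SEM1, a proteasome lid component, fell by 0.83 on its dimmer probe (adjusted p = 0.0051) and had -0.59 on its brightest (adjusted p = 0.0568). A further 3 called probes, all lower in GFP cells, had no symbol in the annotation used here.

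Among genes of respiration, several small subunits lay lower in GFP cells. By limma no gene of 64 measured oxidative phosphorylation genes was called at 1%, with 6 higher and 15 lower at an unadjusted limma p under 0.05. The arrays did not overlap for 21 members lower (all genes: 8.1%) and 10 higher (all genes: 8.94%) in GFP cells, and the median difference was -0.02. In the fit of the 6 control arrays alone, 4 members were lower at 1% (UQCRB, NDUFA1, COX7A2 and ATP5PF) and none higher. Over all 18664 genes that fit called 54 lower and 27 higher. At a looser false discovery rate of 5%, which 43 genes passed (0.23%), 3 small subunits were lower. UQCRB of complex III read 10.01, 10.31 and 10.71 in parental and 9.27, 9.72 and 9.30 in GFP cells (adjusted p = 0.0467). NDUFA1 of complex I read 13.95, 14.14 and 14.29 against 13.07, 13.47 and 13.61 (adjusted p = 0.0467). COX7A2 of complex IV read 14.02, 13.97 and 13.88 against 13.03, 13.32 and 13.36 (adjusted p = 0.0368). For each of them the GFP arrays lay below all parental arrays. COX16, an assembly factor of complex IV, was lower as well (-0.61, adjusted p = 0.0368). At the other end, ATP5F1D of the ATP synthase had a difference of 0.36 (adjusted p = 0.342) and the core subunit UQCRC1 of complex III had 0.33 (adjusted p = 0.63).

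Mitochondrial ribosomal proteins lay in both directions. None of 76 was called at 1% (12 higher and 7 lower at an unadjusted limma p under 0.05), 16 were higher (all genes: 8.94%) and 8 lower (all genes: 8.1%) without overlap, and the median difference was 0.00. MRPL33 was called in the fit of the 6 control arrays. MRPL33, a small protein of the mitochondrial large subunit, read 12.80, 12.72 and 12.78 in parental and 11.58, 12.26 and 11.97 in GFP cells and was lower at 5% (adjusted p = 0.046). MRPL38 had a difference of 0.53 with overlapping arrays (adjusted p = 0.36). The tricarboxylic acid cycle list of 28 genes had a median difference of 0.06, with IDH2, the mitochondrial isocitrate dehydrogenase, at 0.56 (adjusted p = 0.323).

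**Figure D3:**
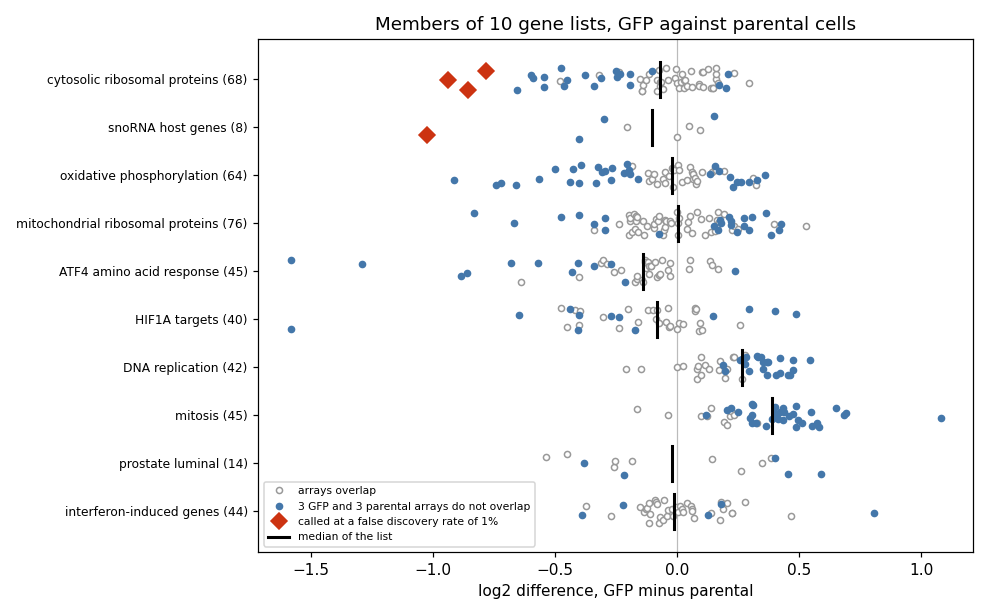
Log2 difference between GFP and parental cells (x axis) for each measured member of 10 gene lists (y axis, number measured in brackets). Diamonds are genes called at a false discovery rate of 1%, filled circles are genes whose 3 GFP and 3 parental arrays did not overlap, open circles are the rest and vertical bars are medians. The medians were 0.39 for mitosis, 0.26 for DNA replication and -0.14 for the ATF4 response.

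The largest median difference of any list was in the cell cycle, spread thinly over many genes. Mitosis genes, which encode the cyclins, kinases and spindle proteins of cell division, had a median difference of 0.39 in GFP cells against 0.00 over all genes. None of 45 was called at 1%, while 16 were higher and 0 lower at an unadjusted limma p under 0.05. For 34 of the 45 all GFP arrays were above all parental arrays, where 8.94% of all genes were, and for none were they below. PLK1, the kinase that drives entry into and passage through mitosis, read 7.94, 7.78 and 7.82 in parental and 8.998, 8.77 and 9.01 in GFP cells (1.08, SE 0.21, adjusted p = 0.0547). CCNB1, the mitotic cyclin B1, read 7.66, 7.71 and 7.62 in parental and 8.52, 8.28 and 8.25 in GFP cells (0.69, SE 0.19, adjusted p = 0.249). Both groups were tight, and the spread used by the test also came from the ARRB1 arrays, in which these genes varied (PLK1 at 6.39 and 7.55, CCNB1 at 6.27 and 7.22 in nucARRB1 cells). In the fit of the 6 control arrays alone, 5 of the 45 mitosis genes were higher at 1% and none lower. Over all 18664 genes that fit called 27 higher and 54 lower.

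DNA replication genes also lay higher in GFP cells. Of 42 measured, none was called at 1%, and 9 were higher and 0 lower at an unadjusted limma p under 0.05. Without overlap 23 were higher (all genes: 8.94%) and 0 lower (all genes: 8.1%). None was called in the fit of the 6 control arrays either. The median difference was 0.26. CDT1, which loads the replicative helicase at origins, read 9.53, 9.35 and 9.46 in parental and 10.08, 9.83 and 10.07 in GFP cells (0.54, adjusted p = 0.268). MCM6, a subunit of that helicase, read 11.21, 11.43 and 11.34 in parental and 11.68, 11.87 and 11.86 in GFP cells (0.48, adjusted p = 0.224). As means over each list relative to the parental mean, the parental arrays stood at -0.01 to 0.02 for mitosis and the GFP arrays at 0.29, 0.40 and 0.41. For replication the parental arrays stood at -0.01 to 0.01 and the GFP arrays at 0.23 to 0.26. The ARRB1 arrays were far below both controls, from -2.00 to -0.40 for mitosis and from -1.57 to -0.73 for replication. Without parental replicate 1 the medians were 0.38 and 0.27, and 35 and 28 members were higher without overlap, where 15.3% of all genes then were. Lower without overlap were then 1 mitosis gene and 0 replication genes (all genes: 14.3%). Across bulk cultures, a larger share of dividing cells and more RNA per dividing cell cannot be told apart.

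Other growth-related lists had medians nearer 0. Of 34 MYC targets and nucleolar assembly genes none was called (5 higher and 1 lower at an unadjusted limma p under 0.05), with a median of 0.11 that was 0.04 without parental replicate 1. MYC itself read 10.75, 11.05 and 10.95 in parental and 10.10, 9.83 and 9.82 in GFP cells (-1.004, SE 0.25, adjusted p = 0.175), all GFP arrays below all parental arrays. It was lower at 1% in the fit of the 6 control arrays alone (adjusted p = 0.000117). NOP58, a core protein of snoRNA particles, had a difference of 0.49 (adjusted p = 0.199). Of 28 immediate early genes none was called at 1% (2 higher and 2 lower at an unadjusted limma p under 0.05). KLF6, a zinc finger factor, read 8.45, 8.32 and 8.23 against 9.60, 9.40 and 9.64 (1.21, SE 0.32, adjusted p = 0.209). In the fit of the 6 control arrays alone KLF6 had an adjusted p of 1.1e-05, and 3 of the 28 immediate early genes were higher at 1% and none lower. Over all 18664 genes that fit called 27 higher and 54 lower. CCN1, a secreted matrix protein and a target of YAP, read 7.10, 7.38 and 7.23 in parental and 8.14, 8.19 and 8.63 in GFP cells and was higher at 5% (1.08, SE 0.17, adjusted p = 0.0229).

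**Figure D4:**
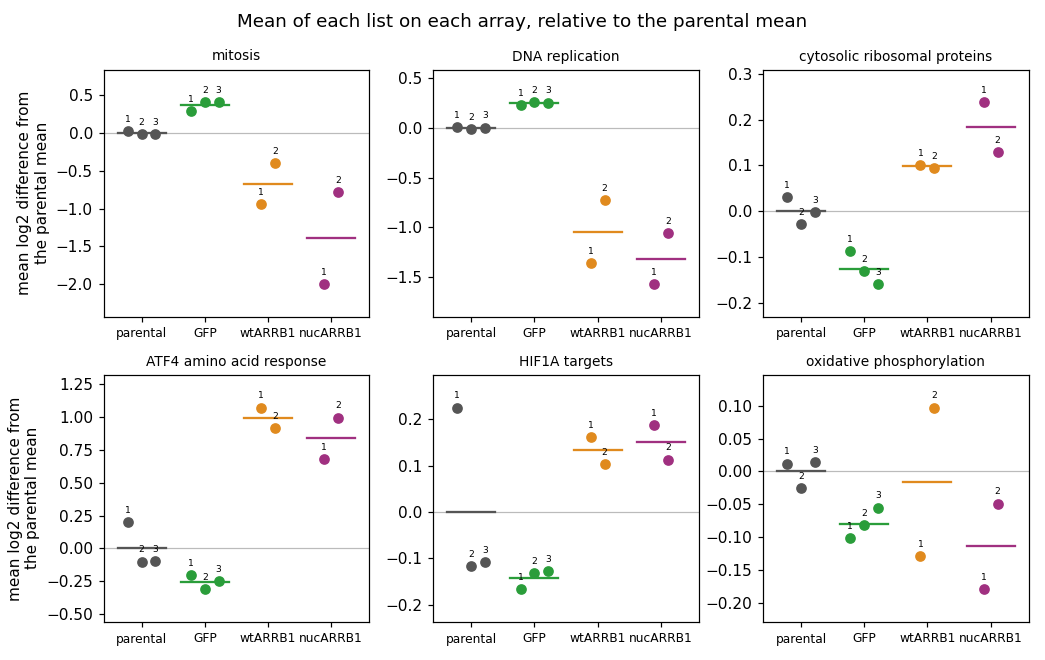
Mean log2 difference from the parental mean over the members of 6 gene lists (y axis) on each array, grouped by cell line (x axis), with replicate numbers and group means. The GFP arrays lay above the parental arrays for mitosis (0.29 to 0.41) and DNA replication (0.23 to 0.26), and parental replicate 1 stood apart from replicates 2 and 3 for HIF1A targets (0.23 against -0.12 and -0.11).

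Stress genes under the transcription factor ATF4, which is translated when amino acids are short, lay lower in GFP cells. None of 45 was called at 1%, with 0 higher and 11 lower at an unadjusted limma p under 0.05. For 11 of them the GFP arrays were below all parental arrays, for 1 above (all genes: 8.1% below and 8.94% above), and the median difference was -0.14. In the fit of the 6 control arrays alone, 3 members were lower at 1% (DDIT4, GDF15 and NUPR1) and none higher. Over all 18664 genes that fit called 54 lower and 27 higher. DDIT4, a brake on mTORC1 signalling, read 11.53, 10.39 and 10.26 in parental and 9.29, 8.97 and 9.18 in GFP cells and was lower at 5% (-1.58, SE 0.26, 2.99-fold, adjusted p = 0.027). GDF15, a secreted stress cytokine, read 11.23, 12.04 and 12.06 in parental and 10.39, 10.65 and 10.42 in GFP cells (-1.29, SE 0.20, adjusted p = 0.0169). Parental replicate 1 was the highest parental array for DDIT4 and the lowest for GDF15, and without it the DDIT4 difference was -1.18 (adjusted p = 0.0257). Both genes were higher in the ARRB1 arrays than in either control, at 11.83 to 12.95 for DDIT4 and 12.80 to 13.55 for GDF15. For DDIT4 the wtARRB1 cells differed by 3.79 from GFP cells and by 2.21 from parental cells (adjusted p = 1.42e-06 and 0.000329), and for GDF15 by 2.94 and 1.65 (adjusted p = 1.1e-06 and 0.000362). ASNS, asparagine synthetase, read 13.49, 12.14 and 11.98 in parental and 11.74, 11.52 and 11.69 in GFP cells (adjusted p = 0.316). The list's mean was 0.20 above the parental mean on parental replicate 1, 0.10 below it on replicates 2 and 3, and -0.20, -0.31 and -0.25 on the GFP arrays. Without parental replicate 1 the median was -0.12 and GDF15 was called at 1%.

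TSC22D3, which encodes the glucocorticoid-induced leucine zipper and stands in the androgen response list, read 8.87, 8.57 and 8.95 in parental and 7.52, 7.73 and 8.06 in GFP cells (-1.03, SE 0.17, adjusted p = 0.0271). In the ARRB1 lines it was 10.01 to 10.88, above both controls. None of 30 androgen response genes was called at 1% (1 higher and 2 lower at an unadjusted limma p under 0.05), with a median of -0.01. TSC22D3 was the 1 member lower at 1% in the limma fit of the 6 control arrays alone (adjusted p = 0.000386), and none was higher. Over all 18664 genes that fit called 54 lower and 27 higher. None of the 14 luminal markers was called (4 higher and 2 lower at an unadjusted limma p under 0.05). ACP3, prostatic acid phosphatase, had a difference of 0.59 (adjusted p = 0.687). FOLH1, which encodes prostate-specific membrane antigen, read 9.34, 10.11 and 10.24 in parental and 9.38, 9.29 and 9.40 in GFP cells. It was not called with all arrays (-0.54, adjusted p = 0.357) but was without parental replicate 1 (-0.81, adjusted p = 0.00549). DDC, dopa decarboxylase, listed as a neuroendocrine gene, had a difference of 0.59 (adjusted p = 0.249).

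The lists for nucleic acid sensing, lysosomes, drug efflux and translation control held no call at 1%. Of 44 interferon-induced genes none was called at 1% (3 higher and 2 lower at an unadjusted limma p under 0.05), and the median was -0.01. IFI35 read 7.82, 7.30 and 7.32 in parental and 8.53, 8.10 and 8.22 in GFP cells and was higher at 5% (0.80, SE 0.14, adjusted p = 0.0368). It was also 8.10 to 8.75 in the ARRB1 arrays. ISG15, the ubiquitin-like modifier, had a difference of 0.47 with overlapping arrays (adjusted p = 0.691). The 19 nucleic acid sensing genes had a median of 0.03, with MAVS, the adaptor of the RNA sensors, at 0.30 (adjusted p = 0.386). The 46 lysosome genes had a median of -0.01 and the 30 autophagy genes -0.03, with none called. Among 36 genes of drug efflux and detoxification none was called at 1%, and ABCC5, an exporter of nucleotide analogues, was lower at 5% (-0.63, adjusted p = 0.046). The 45 translation factors had a median of 0.06 and the 24 genes of ribosome quality control 0.02, with none called. At an unadjusted limma p under 0.05, where 10% of all genes were in either direction, 4 drug efflux genes were higher and 6 lower, 5 translation factors higher and 1 lower, and 4 lysosome genes higher and 3 lower. The nucleic acid sensing list had 1 higher and 0 lower, autophagy 0 and 2, and ribosome quality control 0 and 1. In the fit of the 6 control arrays, IFI35 and ABCC5 were called.

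Other genes passed only at 5%, and are named because they passed there. Higher in GFP cells were HES4, a transcriptional repressor, which read 11.44, 11.19 and 11.02 in parental and 11.96, 12.07 and 12.14 in GFP cells (adjusted p = 0.0264), and TINF2, a telomere-binding shelterin protein, at 8.30, 7.99 and 7.74 against 9.14, 8.82 and 8.83 (adjusted p = 0.0101). USP1, the deubiquitinase of PCNA and FANCD2, read 8.62, 8.51 and 8.56 against 9.44, 9.29 and 9.09 (adjusted p = 0.0169). DPYSL3, DDX39A, HMG20B, LRRC26, SLC27A2, TENT5C and GEMIN4 were higher by 0.70, 0.67, 0.69, 0.61, 0.58, 0.53 and 0.50. Lower was BCHE, butyrylcholinesterase, at 7.64, 8.47 and 8.53 in parental and 6.76, 7.26 and 6.73 in GFP cells (adjusted p = 0.0322). STX1A, a syntaxin of the exocytosis machinery, read 7.48, 7.97 and 7.92 against 6.93, 6.94 and 7.04 (adjusted p = 0.0112). Among the remaining genes lower at 5%, SLITRK3, the multicopy RNA SNAR-A1, GTF2H5, ZSCAN18 and MOCS2 had differences of -1.02, -0.85, -0.76, -0.73 and -0.68. C6orf52, CRELD1, COMMD6, PIGF and ZMYND8 had -0.66, -0.66, -0.64, -0.64 and -0.58. In all 13 genes higher and all 30 genes lower at 5% (0.0697% and 0.161% of genes) the arrays of both groups were apart. Over all genes 8.94% were apart with GFP higher and 8.1% with GFP lower. The 5% genes were picked by their p on the same arrays, so being apart adds no support to them.

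The study turned on ARRB1, the hypoxia factor HIF1A and genes of glucose and mitochondrial metabolism. ARRB1 and HIF1A were close in both controls, while more of the other named genes lay lower than higher in GFP cells. ARRB1 on its brightest probe read 8.27, 8.47 and 8.43 in parental and 8.12, 8.58 and 8.61 in GFP cells (0.05, SE 0.15, adjusted p = 0.987). The arrays overlapped, and 3 further ARRB1 probes had differences of -0.04 to 0.00. HIF1A read 6.62, 6.81 and 7.04 against 6.91, 6.87 and 6.88 (0.06, SE 0.13, adjusted p = 0.977). Of 21 measured genes that the study names, none was called at 1% (2 higher and 3 lower at an unadjusted limma p under 0.05). Of them 14 had a negative and 7 a positive difference, with a median of -0.09, or -0.02 without parental replicate 1. The arrays did not overlap for 5 lower in GFP cells (all genes: 8.1%) and 2 higher (all genes: 8.94%). ENO3, the muscle enolase, was lower at 5%, at 8.95, 8.95 and 8.85 in parental and 8.24, 8.46 and 8.17 in GFP cells (-0.63, SE 0.10, adjusted p = 0.0284). It was lower at 1% in the limma fit of the 6 control arrays alone (adjusted p = 0.00482). In wtARRB1 cells ENO3 was 9.55 and 9.32 and in nucARRB1 cells 9.08 and 9.12. The nucARRB1 difference was 0.81 from GFP cells (adjusted p = 0.000221) and 0.18 from parental cells (adjusted p = 0.57). ALDOC had -0.65 (limma adjusted p = 0.716), ALDOA -0.24 and LONP1 -0.17, each with the GFP arrays below all parental arrays. For ALDOC this held only barely, at 10.0126 on parental replicate 2 against 10.012 on the highest GFP array. Its difference came mostly from parental replicate 1, at 11.73. STC2, a secreted glycoprotein hormone, had -0.41 (adjusted p = 0.38) and VEGFA, the angiogenic factor, -0.30 (adjusted p = 0.823). BNIP3 and BNIP3L, receptors for the removal of mitochondria, had -0.42 and -0.40 with overlapping arrays. HK2, a hexokinase, had 0.30 (adjusted p = 0.392), DLAT, a pyruvate dehydrogenase subunit, 0.22 and SDHA, a succinate dehydrogenase subunit, 0.19. Differences between -0.09 and 0.16 were read for PPARG, IDH1, LDHA, PGM1, DLD, VEGFB and PDHA1.

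For genes that differed between the controls, the distance of the ARRB1 lines is given against each. SNHG5 in wtARRB1 cells differed by 1.68 from GFP cells (adjusted p = 2.76e-06) and by 0.65 from parental cells (adjusted p = 0.011). RPL26 in wtARRB1 cells differed by 0.78 from GFP cells (adjusted p = 0.000222) and by 0.00 from parental cells (adjusted p = 0.997). BEX1 in wtARRB1 cells differed by -1.37 from GFP cells (adjusted p = 9.7e-05) and by 0.11 from parental cells (adjusted p = 0.901). PHLDA1 went the other way, with -0.37 from GFP cells (adjusted p = 0.577) and -1.98 from parental cells. These comparisons share arrays, and no test of the difference between them was made beyond the GFP-to-parental contrast itself.

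Parental replicate 1 stood apart within the parental group. Of the 35 genes more than 2-fold from the mean of replicates 2 and 3, 28 were higher and 7 lower in it. S100P, a calcium-binding protein, was 10.86 in replicate 1 and 6.61 and 6.73 in replicates 2 and 3, a difference of 4.19 on the log2 scale. In GFP cells it was 7.46, 7.82 and 7.61, between them, and in the ARRB1 lines it was 11.73 to 13.18. Without replicate 1 all 3 GFP arrays were above the remaining parental arrays for S100P. PLOD2, a collagen lysyl hydroxylase known as a hypoxia target, was 8.998 in replicate 1 against 6.87 and 6.80, and 6.67 to 6.73 in GFP cells. ALDOC, the brain aldolase, was 11.73 against 10.01 and 10.13, and 9.91 to 10.01 in GFP cells. ANKRD37, a hypoxia target of unknown function, was 9.62 against 8.15 and 8.14. The ATF4 targets ASNS and PCK2, the mitochondrial phosphoenolpyruvate carboxykinase, were higher in replicate 1 by 1.43 and 1.499. WDR72, COX7B2, PRSS1 and MICAL1 were higher by 1.62, 1.62, 1.32 and 1.29, and PRSS1, a trypsinogen, was as high in GFP cells (7.47, 7.66 and 7.79) as in replicate 1 (7.74).

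Lower in parental replicate 1 was CDKN1A, the p53-induced cyclin-dependent kinase inhibitor, at 10.17 against 11.50 and 11.69, with 11.01, 10.92 and 10.86 in GFP cells. SYTL2, ACTA2, GCG, H4C8, TMEFF2 and CALD1 differed by -1.26, -1.15, -1.14, -1.11, -1.10 and -1.06. S1PR3, GULP1 and DNAJC7 differed by -0.99, -0.96 and -0.95. TMEFF2, a transmembrane protein of prostate cells, read 7.48 in replicate 1, 8.54 and 8.63 in replicates 2 and 3 and 6.35, 7.03 and 7.29 in GFP cells, so that it was below parental cells on every GFP array (-1.33, adjusted p = 0.0547). Without replicate 1 it was called (-1.69, adjusted p = 0.00211). As a group, the 40 HIF1A targets were higher in replicate 1 by a median of 0.24 and the 45 ATF4 targets by 0.25, while the 37 histone genes had -0.27 and all genes 0.00. The glycolysis list had 0.26. No test was made, since the values of a lone array have no replicate.

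**Figure D5:**
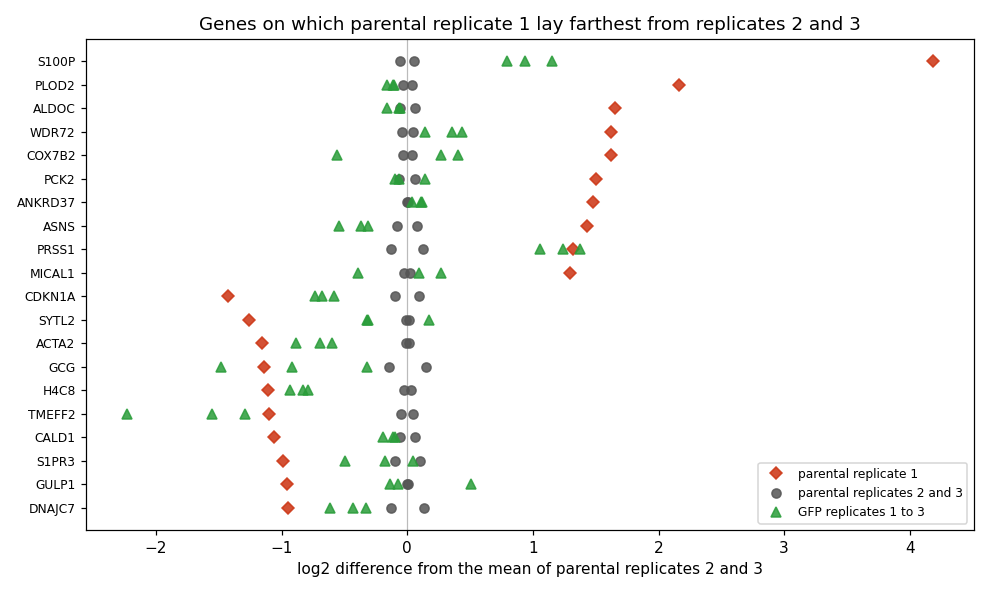
Log2 difference from the mean of parental replicates 2 and 3 (x axis) for the 10 genes in each direction on which parental replicate 1 (red diamonds) lay farthest from them (y axis), with replicates 2 and 3 in grey and the GFP arrays as green triangles. S100P was 4.19 higher in replicate 1, and PLOD2 2.16 higher.

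Leaving parental replicate 1 out moved the GFP comparison in both directions. Called were then 13 genes, 3 higher and 10 lower, of which 6 were among the 9 called with all arrays (BEX1, SNHG5, RPL34, NOVA1, ILRUN-AS1 and RPL26). New calls were TINF2 and IFI35, higher, and TMEFF2, BCHE, GDF15, STX1A and FOLH1, lower. PHLDA1, RPL21 and MIR99AHG were no longer called by limma, the highest adjusted p among the 9 genes being 0.0257. The median difference of the HIF1A targets went from -0.08 to 0.00 and that of the glycolysis list from -0.04 to 0.08 when replicate 1 was left out.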

How the data were processed

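Members of the comparison and the gene lists were chosen with earlier results of these data known. Illumina BeadChip RNA profiles of 10 arrays were used. The authors deposited log2 intensities per probe, not normalised between arrays (pre-processed in R with beadarray per the study's methods), and a log2 table after their quantile normalisation. Here the first table was quantile-normalised and fitted with limma 3.58.1 (R 4.3.3) as 4 group means over 10 arrays (6 residual degrees of freedom). Contrasts were tested two-sided, with Benjamini-Hochberg adjustment over 48801 probes and calls at a false discovery rate of 1%. A gene was read from its probe with the highest mean. Of the probes, 13 had several symbols and 21212 had none. No probe was filtered, and the fit was tested on simulated data. The authors' table differed by at most 0.0232 from the values used. Deposited array medians were 6.22 to 6.45.

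Named genes were ARRB1, the called genes, up to 2 members with the largest difference in lists without a call, the 10 genes in each direction for parental replicate 1, and genes that the study names. Of the listed symbols, 1396 of 1509 were measured. Genes named for passing at 5%, and further list members given as contrast, were chosen after their values were seen. Alternatives changed the normalisation, arrays, weights, probes, variance model, threshold and block. A filter on detection p-values was not run, since none were among the values used.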

Additional observations from a re-analysis of the deposited data

How the results depend on the processing

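The 9 genes kept their direction in every alternative run. The counts did not keep their size. Median scaling and no normalisation each gave 3 calls (2 higher, 1 lower), the bright probes 2 (1 lower), the mean of all probes of a gene 0 (0 higher, 0 lower by limma, with 1584 genes at an unadjusted p under 0.05), array weights 20 (7 higher, 13 lower) and a variance trend with robust prior 11 (3 higher). The 6 control arrays gave 81 (27 higher, 54 lower), the threshold of 5% 43 (13 higher, 30 lower), and the 5 control arrays without parental replicate 1, chosen after seeing the data, 101 (43 higher, 58 lower). The authors' own normalised values gave 9. Leaving out each array gave 0 to 32 calls, 0 to 9 higher and 0 to 23 lower. Where this left wtARRB1 or nucARRB1 with 1 array, that array was assumed to vary like the other groups. The cause of these shifts was not tested.

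The replicate block gave 7 calls (2 higher, 5 lower), 4 of them among the 9. Replicate numbers were not a pairing in the labels, and deviations of same-numbered parental and GFP arrays correlated at -0.066, 0.002 and 0.005.

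Small differences that were not called changed sign. PGM1 was 0.0085 with median scaling, and ARRB1 was -0.0034 with all probes averaged. In the 5 control arrays ARRB1 was -0.0119, HIF1A -0.0415, IDH1 0.0485, LDHA 0.0866, PDHA1 -0.0051, PGM1 0.11 and PPARG 0.0606. Over the arrays left out singly, ARRB1 ran from -0.0396 to 0.21, PGM1 from -0.15 to 0.11, HIF1A from -0.0415 to 0.17, IDH1 from -0.16 to 0.0485, LDHA from -0.19 to 0.0866, PDHA1 from -0.0716 to 0.38, PPARG from -0.24 to 0.11, VEGFB from -0.0562 to 0.34 and DLD from -0.0451 to 0.0926.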
